A study of Mus musculus with 15 samples.

Results

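The E2F and retinoblastoma genes were followed through B cell differentiation, from resting naive cells to activated B cells and plasmablasts, with and without chemical inhibition of EZH2. The members were taken by gene symbol from the expression table: the E2F transcription factor genes *E2f1* to *E2f8* and the pocket protein genes *Rb1* and *Rbl1*. These were 10 of the 21669 genes with a symbol, and all 10 passed the filter on low values, which kept 11299 genes. *E2f7* passed it only through the cultured groups.

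E2F proteins bind the promoters of genes that a cell needs for DNA replication and division. In a resting cell, pocket proteins hold E2F factors on these promoters and keep the genes off. When cyclin D and cyclin E kinases phosphorylate the pocket proteins, the activator E2Fs are released and the cell enters S phase, while E2F6 and the atypical members E2F7 and E2F8 repress without a pocket protein. Naive B cells rest in the spleen and divide rapidly once stimulated, before some of them begin to secrete antibody as plasmablasts.

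All cells came from female wild-type C57BL/6J mice of 6 to 9 weeks. Naive B cells (nB) were isolated from spleen as CD43- cells and were not cultured. The 4 cultured groups had been stimulated for 3 days with lipopolysaccharide (LPS) and cytokines and were then sorted as activated B cells (actB; B220+GL7+CD138-) or plasmablasts (Pb; CD138+), each from cultures with GSK343 at 2 μM, an inhibitor of the histone methyltransferase EZH2, or with its vehicle DMSO. The cytokines were IL2 and IL5, except that the labels of the GSK343-treated Pb name IL6 in place of IL5, so that drug and cytokine cannot be told apart there. Cells that had been stimulated in culture differ from nB in culture as well as in stage, and the culture and the stage cannot be told apart.

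Each group had 3 libraries of polyadenylated RNA, with 19421830 to 26307413 reads counted to genes per library. Libraries 1 and 2 of nB differed by less than the sampling noise and were counted as 1 sample, which left 14. Levels are given as reads per kilobase of gene per 1000000 reads (RPKM), as mean ± SD over libraries, and differences as log2 fold changes of RPKM + 0.25 with their standard error (SE), a scale that understates the change of low genes. A difference was called at an adjusted p under 0.05 in limma, fitted over all genes with Benjamini-Hochberg adjustment. The summed RPKM of 7 plasmablast markers was 366 to 376 in nB, 996 to 1032 in actB and 4631 to 4876 in Pb with DMSO, and that of 7 B cell markers was 3678 to 3783, 1984 to 2285 and 1076 to 1102. The plasmablast markers did not all rise from nB to actB with DMSO: 4 were called higher, 1 lower and 2 neither. The lower one, *Sdc1*, went from 5.17 to 0.665 RPKM on average. In Pb against actB, both with DMSO, all 7 were called higher. Markers of myeloid cells summed to 199 to 245 RPKM in nB, against at most 14.2 in any cultured library. Those of T and NK cells summed to 43.5 to 45.2 RPKM in nB and at most 5.89 in culture, and those of erythroid cells and platelets to 34.3 and 141 RPKM in the nB samples and at most 19.3 in culture. The part of these markers in the members' levels in nB was not tested. In bulk RNA, fewer cells of a type and less RNA per cell cannot be told apart.

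In nB the family was led by the canonical repressor *E2f4* and the pocket protein gene *Rb1*. *E2f4* stood at 58.3 and 50.6 RPKM in the nB libraries and *Rb1* at 42.3 and 45.3 RPKM. The next was the activator *E2f2*, at 26.5 and 26.4 RPKM. Then followed *Rbl1* at 11.9 ± 1.015, *E2f5* at 8.45 ± 0.337, *E2f3* at 4.96 ± 0.487, *E2f1* at 3.34 ± 0.0401, *E2f6* at 3.08 ± 0.225 and *E2f8* at 1.76 ± 0.262 RPKM (n = 2). *E2f7* was lowest, at 0.218 and 0.286 RPKM. No 2 neighbours in this order overlapped between the nB libraries.

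**Figure D1:**
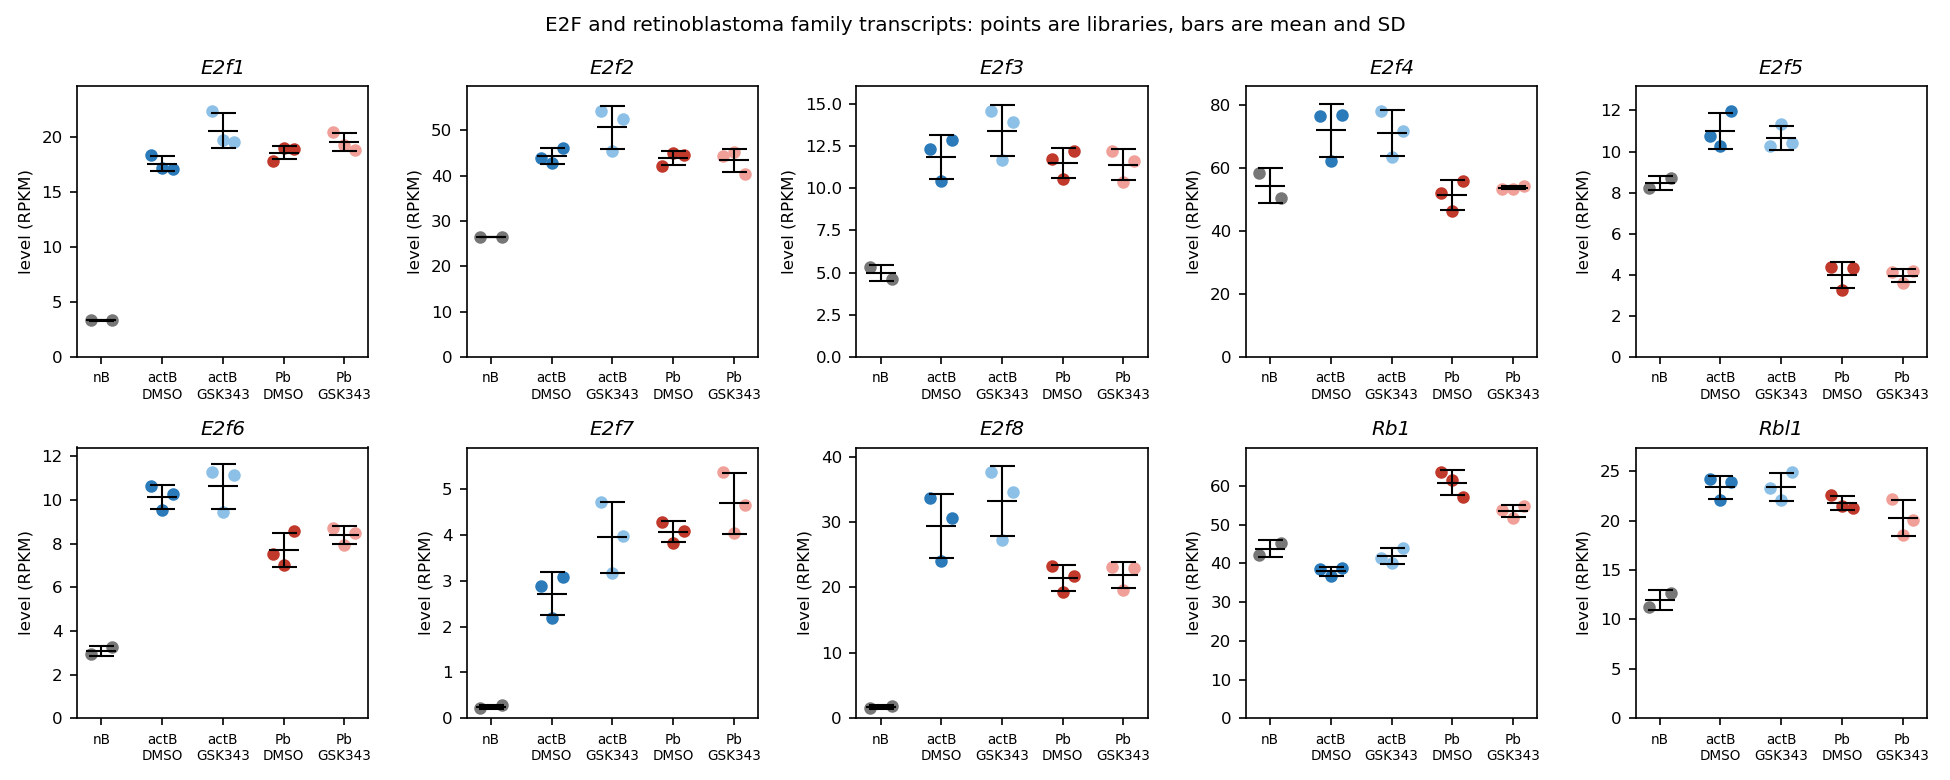
Level of each E2F and pocket protein gene in RPKM (y axis, linear, from 0) in every library of the 5 groups (x axis), with points for libraries and bars for the mean and SD. The *E2f8* panel runs from 1.58 RPKM in nB to 37.6 RPKM in actB with GSK343, while *Rb1* is highest in Pb with DMSO, at 57.3 to 63.6 RPKM.

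The comparison of actB with nB asks how the family changed as resting cells were driven into division. Of the 10 members, 9 were higher in actB with DMSO, where 40.9% of all genes tested were called higher, and *Rb1* alone was lower, where 36.3% were called lower. The median log2 fold change was 1.09 over the members and 0.053 over all genes tested. The rises ranged from 0.37 for *E2f5* to 3.87 for *E2f8* on the log2 scale. They include that of *E2f7*, which passed the filter only through the cultured groups.

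Among the activators, the rise was largest for *E2f1* (Entrez 13555, chr2:154385143-154395628 of mm9, minus strand), whose protein can drive quiescent cells into S phase. Its level was 3.37 and 3.31 RPKM in nB and 18.3, 17.2 and 17.1 RPKM in actB. Every actB library lay above both nB libraries, by a ratio of mean RPKM of 5.26, and the log2 fold change was 2.31 (SE 0.0674, adjusted p = 1.58e-11, limma). *E2f3* (chr13:29998444-30077537, minus strand), which acts in the same step, had 5.31 and 4.62 RPKM in nB and 12.3, 10.4 and 12.9 RPKM in actB. The groups did not overlap, and its log2 fold change was 1.21 (SE 0.118, adjusted p = 9.67e-07). *E2f2* (chr4:135728309-135751972, plus strand), the most abundant activator in each group, went from 26.5 and 26.4 RPKM to 43.8, 42.9 and 46.2 RPKM. This was the smallest rise of the activators, 0.74 on the log2 scale (SE 0.0755, adjusted p = 1.60e-06), again with no overlap. On average *E2f2* stood at 26.4 ± 0.0451 RPKM and *E2f1* at 3.34 RPKM in nB, and in actB they stood at 44.3 ± 1.71 and 17.5 ± 0.685 RPKM.

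The canonical repressors, which rely on pocket proteins, moved less. *E2f4* (chr8:107821563-107829269, plus strand), the main E2F of resting cells, had 76.7, 62.2 and 77.0 RPKM in actB. The lowest of these lay just above the higher nB library, and the log2 fold change was 0.40 (SE 0.111, adjusted p = 0.00574). *E2f5* (chr3:14578671-14606308, plus strand), its closest relative, had 8.21 and 8.69 RPKM in nB and 10.8, 10.3 and 11.99 RPKM in actB, a log2 fold change of 0.37 (SE 0.117, adjusted p = 0.0119). Both calls rested on single nB libraries: without nB replicate 3 the log2 fold change of *E2f4* was 0.29 (adjusted p = 0.0811), and without nB replicate 1 that of *E2f5* was 0.33 (adjusted p = 0.0796).

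Of the members that repress without a pocket protein, the atypical pair had the largest rises of the family, and *E2f6* came below *E2f1*. *E2f8* (chr7:56121799-56136966, minus strand), an atypical E2F that is itself induced late in the G1 phase and represses E2F target genes as cells pass S phase, had 1.58 and 1.95 RPKM in nB. In actB it had 33.6, 24.0 and 30.6 RPKM, a ratio of mean RPKM of 16.7 and a log2 fold change of 3.87 (SE 0.16, adjusted p = 3.12e-10). Every actB library was thus over 10 times as high as either nB library, and *E2f8*, the next to lowest member in nB, came level with *Rbl1* in actB. Its partner *E2f7* (chr10:110182495-110224440, plus strand) rose from 0.218 and 0.286 RPKM to 2.89, 2.18 and 3.07 RPKM. The groups were far apart, with a ratio of mean RPKM of 10.8 and a log2 fold change of 2.55 (SE 0.17, adjusted p = 2.84e-08). *E2f7* remained the lowest member, and its tests against nB are limited by its passing the filter only through the cultured groups. *E2f6* (chr12:16817771-16833549, plus strand), which works through Polycomb-type complexes, went from 2.93 and 3.24 RPKM to 10.6, 9.52 and 10.3 RPKM. Its groups did not overlap either, and its log2 fold change was 1.64 (SE 0.0994, adjusted p = 1.14e-08). Exons of *E2f8* share 274 bases with the long noncoding RNA *Gm2788* on the other strand, whose own values were not analysed here.

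The pocket protein genes parted. *Rbl1* (chr2:156971629-157030270, minus strand), which encodes p107, a pocket protein of cycling cells, had 11.2 and 12.7 RPKM in nB and 24.2, 22.1 and 23.9 RPKM in actB, a log2 fold change of 0.96 (SE 0.0821, adjusted p = 3.07e-07). *Rb1* (chr14:73583480-73725629, minus strand), which encodes the retinoblastoma protein, had 42.3 and 45.3 RPKM in nB and 38.4, 36.7 and 38.8 RPKM in actB. All actB libraries were below both nB libraries, but by little: the log2 fold change was -0.20 (SE 0.0597, adjusted p = 0.00725), and without nB replicate 3 it was -0.16 (adjusted p = 0.0755). *Rbl2*, the gene of the third pocket protein, p130, which is known from quiescent cells, was 25.3 to 26.7 RPKM in nB and 17.8 to 20.1 RPKM in actB, a log2 fold change of -0.48 (adjusted p = 2.84e-05).

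**Figure D2:**
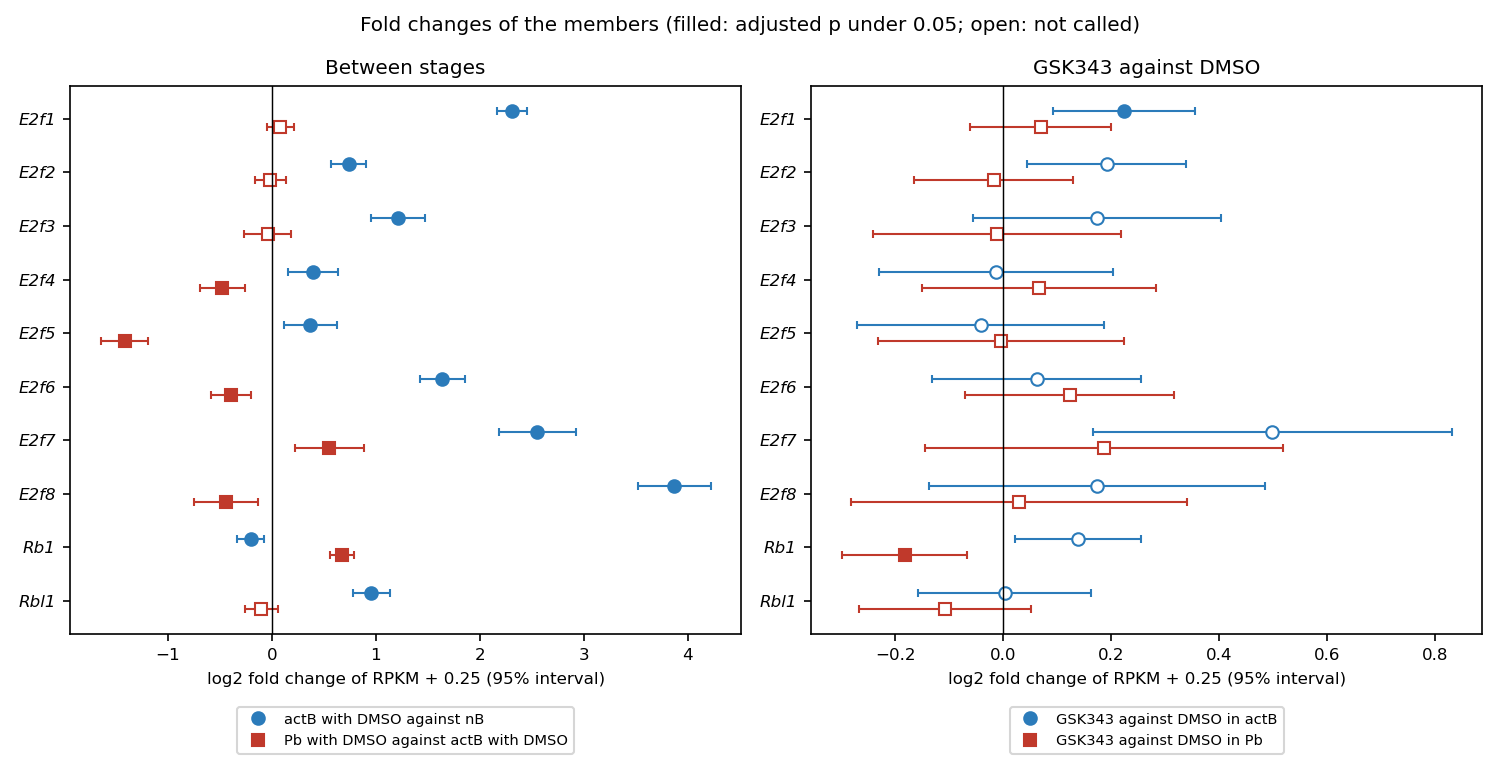
Log2 fold change of each member on the RPKM + 0.25 scale (x axis) with its 95% interval, for the comparisons between stages (left) and of GSK343 with DMSO (right), where filled symbols mark an adjusted p under 0.05. Activation gives the widest span, from -0.20 for *Rb1* to 3.87 for *E2f8*, while with GSK343 only *E2f1* in actB and *Rb1* in Pb are filled.

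Promoter sequence was at hand for 7 members, in 9 windows from RefSeq on GRCm38.p6, each from 250 bases before to 50 bases after a transcript start. The letters TTTCCCGC, TTTGGCGC, TTTCGCGC and TTTGCCGC, which E2F proteins are known to bind, and TTTGAA and TTCGAA, the core of the cell cycle homology region of genes expressed in G2 and M phase, were looked for on both strands. E2F letters stood in a window of 4 members, *E2f2*, *E2f3*, *E2f7* and *Rbl1*, and in 2.26% of the 32851 windows of all genes. The homology region letters stood in a window of 3 members, *E2f2*, *E2f3* and *E2f8*, and in 19.2% of all windows. No such letters were found in the windows of *E2f1* and *E2f6*. The E2F letters of *E2f2* stood in its first window and the homology region letters in its second. The transcript start of that second window lies 8508 bases inside the outermost start of the gene's annotation. The second window of *E2f3*, whose transcript start lies 1673 bases inside, had no such letters. The transcript starts of the *E2f1* and *E2f8* windows lie 466 and 477 bases inside the outermost start of the gene's annotation. Other starts of these genes were not searched. Such letters are a description of these windows and not evidence of binding.

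The members with E2F letters rose from nB to actB, and so did *E2f1*, *E2f6* and *E2f8*, whose windows had none. The windows with E2F letters are shown, and that of *E2f8*, the member that rose most. Each is written 5′ to 3′ on the gene's own strand, with the matching letters of either strand in capitals and positions counted from the transcript start as 1, the base before it being -1. The *E2f3* stretch (chr13:29986064-29986313, minus strand) has TTTGAA at -23 and, on the other strand, TTTCCCGC at -11. The *E2f7* stretch (chr10:110745189-110745438, plus strand) has TTTCCCGC on the other strand at -198. The *Rbl1* stretch (chr2:157204535-157204784, minus strand) has TTTCGCGC at -18, the *E2f2* stretch (chr4:136172294-136172323, plus strand) has TTTGGCGC at 40, and the *E2f8* stretch (chr7:48881597-48881626, minus strand) has TTTGAA on the other strand at -20.
E2f3: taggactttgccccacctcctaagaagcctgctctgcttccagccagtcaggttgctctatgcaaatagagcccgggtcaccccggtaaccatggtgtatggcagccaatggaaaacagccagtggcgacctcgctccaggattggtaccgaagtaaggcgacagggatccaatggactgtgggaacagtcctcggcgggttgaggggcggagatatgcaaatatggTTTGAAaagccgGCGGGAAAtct
E2f7: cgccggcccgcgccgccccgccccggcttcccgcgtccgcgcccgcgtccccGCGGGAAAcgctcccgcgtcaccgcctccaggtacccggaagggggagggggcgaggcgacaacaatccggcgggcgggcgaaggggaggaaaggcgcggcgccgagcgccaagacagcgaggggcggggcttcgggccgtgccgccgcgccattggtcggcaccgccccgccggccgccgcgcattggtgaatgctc
Rbl1: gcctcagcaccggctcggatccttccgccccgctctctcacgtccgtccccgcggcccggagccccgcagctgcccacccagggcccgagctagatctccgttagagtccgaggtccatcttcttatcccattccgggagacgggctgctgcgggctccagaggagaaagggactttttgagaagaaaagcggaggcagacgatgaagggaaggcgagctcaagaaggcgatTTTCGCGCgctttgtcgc
E2f2: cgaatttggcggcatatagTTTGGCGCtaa
E2f8: gcgggttaatTTCAAAtcgggggctggact

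The comparison of Pb with actB, both with DMSO, asks how the family differed between the fates of the same cultures. It shares its actB libraries with the comparison above. Of the 10 members, 2 were higher in Pb, where 27.3% of all genes were called higher, and 4 were lower, where 42.4% were called lower. Over all genes the log2 fold changes had a median of -0.116, and over the members -0.0707, and scaling by the median gene brought the all-gene value to -0.0048.

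*Rb1* and *E2f7* were the members that rose. *Rb1* had 38.4, 36.7 and 38.8 RPKM in actB and 63.6, 61.6 and 57.3 RPKM in Pb, a ratio of mean RPKM of 1.602. The groups were well apart, with a log2 fold change of 0.68 (SE 0.0534, adjusted p = 2.05e-07), or 0.79 above the median of all genes. Exons of *Rb1* share 488 bases with *Rcbtb2* and 408 bases with *Lpar6* on the other strand, and whether reads were counted by strand is not given in the sources used here. The level of *Rcbtb2* was 4.64 RPKM in actB and 25.8 RPKM in Pb on average (log2 fold change 2.42, adjusted p = 3.20e-09), and that of *Lpar6* was 6.53 and 5.37 RPKM (log2 fold change -0.27, adjusted p = 0.226). The part of such shared reads in the level of *Rb1* was not tested. *E2f7* had 2.89, 2.18 and 3.07 RPKM in actB and 4.28, 3.83 and 4.09 RPKM in Pb, with no overlap and a log2 fold change of 0.55 (SE 0.152, adjusted p = 0.00600).

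*E2f5* had the largest difference of all members between these stages. Its level was 10.8, 10.3 and 11.99 RPKM in actB and 4.38, 3.27 and 4.31 RPKM in Pb, which was also below both nB libraries. The mean in actB was 2.76 times that in Pb, and the log2 fold change was -1.42 (SE 0.105, adjusted p = 1.11e-07), or -1.30 relative to the median of all genes. *E2f4* had 52.2, 46.5 and 55.8 RPKM in Pb, all below the actB libraries, with a log2 fold change of -0.48 (SE 0.0995, adjusted p = 0.000907). *E2f6* had 7.52, 7.01 and 8.56 RPKM in Pb and also did not overlap with actB, at -0.39 (SE 0.0889, adjusted p = 0.00179). The canonical repressors and *E2f6* were thus all lower in Pb. *E2f8* had 33.6, 24.0 and 30.6 RPKM in actB and 23.3, 19.3 and 21.7 RPKM in Pb. The lowest actB library lay close to the highest Pb library, and the log2 fold change of -0.44 (SE 0.143, adjusted p = 0.0155) was -0.34 without actB replicate 1 (adjusted p = 0.0710) and -0.37 without Pb replicate 2 (adjusted p = 0.0624). The atypical members therefore differed in opposite directions, *E2f7* upward and *E2f8* downward.

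The activators and *Rbl1* did not pass the test. *E2f1* had 17.9, 19.0 and 18.9 RPKM in Pb against 17.1 to 18.3 RPKM in actB, overlapping groups with a log2 fold change of 0.08 (SE 0.0602, adjusted p = 0.243). With scaling by the median gene, by quantiles or by edgeR's relative log expression it was called higher, at 0.19 (adjusted p = 0.0106), 0.18 (0.0158) and 0.20 (0.00946). *E2f2*, at 43.9 ± 1.63 RPKM, *E2f3*, at 11.5 ± 0.881 RPKM, and *Rbl1*, at 21.8 ± 0.706 RPKM in Pb (n = 3), had log2 fold changes of -0.01, -0.04 and -0.10 (adjusted p = 0.871, 0.750 and 0.240). Their signs turned with the scaling, for *E2f2* and *E2f3* under all 4 other scalings and for *Rbl1* under 2 of them.

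Between Pb and nB, which shares libraries with both comparisons above, 8 members were higher, where 39.5% of all genes were called higher, and 1 was lower, where 41.1% were called lower. *E2f8* reached 12.2 times, *E2f7* 16.2 times and *E2f1* 5.57 times the mean RPKM of nB, with the same limit on *E2f7*. *Rb1* was 0.47 higher (adjusted p = 9.36e-06) and *Rbl1* 0.86 higher (adjusted p = 6.16e-07) on the log2 scale. *E2f5* was the member below its naive level, at -1.05 (adjusted p = 2.82e-06). *E2f4* differed by -0.08 on the log2 scale, with a 95% interval of -0.32 to 0.16 and an adjusted p of 0.511.

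These changes altered the makeup of the E2F pool, taken as the RPKM of *E2f1* to *E2f8* summed in each library. The sum was 102.8 ± 5.19 RPKM in nB, 198.9 ± 17.6 in actB and 162.65 ± 7.86 in Pb with DMSO. *E2f4* and *E2f5* together made up 61.2 ± 1.92% of it in nB, 41.7 ± 1.003% in actB and 34.0 ± 1.64% in Pb. The activators *E2f1* to *E2f3* made up 33.8 ± 1.15%, 37.2 ± 2.02% and 45.5 ± 2.39%, rank upon rank without overlap between the libraries of the 3 groups. The atypical members were 1.97 ± 0.401% of the pool in nB and 16.1 ± 1.41% in actB, and at 15.7 ± 1.05% in Pb their libraries overlapped those of actB. The ratio of *Rb1* to *Rbl1* was 3.67 ± 0.133 in nB, 1.63 ± 0.0365 in actB and 2.79 ± 0.0900 in Pb, again with no overlap. These shares and ratios were given no test. An exact permutation test of 3 libraries against 3 cannot go below p = 0.1, and nB had only 2 samples.

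**Figure D3:**
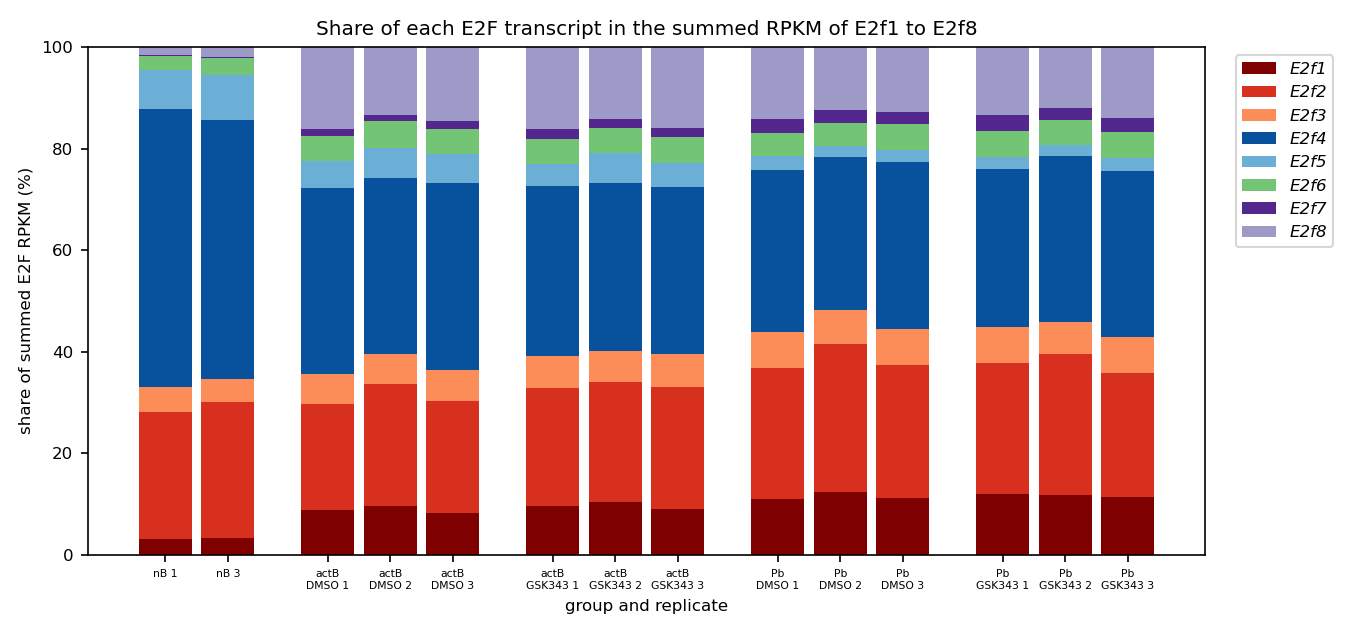
Percent of the summed RPKM of *E2f1* to *E2f8* (y axis, 0 to 100) that each E2F gene made up in every library (x axis), as stacked bars. *E2f4* takes 52.9% of the pool in nB on average and 31.6% in Pb with DMSO, and *E2f8* goes from 1.72% in nB to 14.7% in actB.

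The order of levels shifted accordingly. In actB with DMSO it ran from *E2f4* and *E2f2* through *Rb1* to *E2f8* and *Rbl1*, which overlapped, then *E2f1*, then *E2f3*, *E2f5* and *E2f6*, which overlapped, and *E2f7*. In Pb with DMSO *Rb1* stood first, above *E2f4* and *E2f2*, followed by *Rbl1* and *E2f8*, which overlapped, then *E2f1*, *E2f3* and *E2f6*. *E2f5* and *E2f7* came last there and overlapped.

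Genes that work with the family were described from fixed lists, beside the shares of all genes given above. Of the dimer partners, with which E2F1 to E2F6 bind DNA, *Tfdp1* rose from 14.4 to 14.7 RPKM in nB to 110 to 129 RPKM in actB (log2 fold change 3.05, adjusted p = 1.73e-11), and *Tfdp2* fell (-0.51, adjusted p = 0.000702). In Pb against actB the directions were opposite, at -0.61 for *Tfdp1* and 0.47 for *Tfdp2*, both called. Among 5 cyclin D kinase genes, 4 rose and 1 fell with activation: *Ccnd2* rose by 3.12 on the log2 scale, and *Ccnd1* went from 10.4 to 11.5 RPKM in nB to 0.122 to 0.222 RPKM in actB. *Ccnd1* passed the filter only through nB. Of 5 cyclin E and cyclin A kinase genes, 4 were tested and all 4 rose, *Ccna2* most, at 4.52. *Ccne2* passed the filter only through the cultured groups.

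Of 6 tested genes of CDK inhibitors, the proteins that keep pocket proteins unphosphorylated, 4 rose and 2 fell with activation. *Cdkn2a*, at 0.0766 to 0.192 RPKM in nB and 18.5 to 24.6 RPKM in actB, had the largest rise, having passed the filter only through the cultured groups, and *Cdkn2d* fell by 0.34. *Cdkn2b* also passed only through the cultured groups. Of 6 genes of the MuvB complex and B-Myb, which binds the homology region, 4 rose, most of all *Mybl2* (4.84), and *Lin52* fell by 0.57. All 5 genes listed under the turnover of cell cycle proteins or its control rose, *Cdc20* most, at 3.96. *Skp2* of this list passed the filter only through the cultured groups. Between Pb and actB, *Mybl2* was lower by 1.09 and *Cdc20* higher by 0.49, *Ccnd3* was lower by 0.92, and *Cdkn2b* was higher by 1.61, each the extreme of its list.

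The lists of E2F target genes moved as a body with activation. Of 25 S phase genes, 23 rose, *Rrm2*, a ribonucleotide reductase subunit, most (4.40), and the list's median log2 fold change was 2.46. *Cdt1*, which licenses replication origins, was the only gene of this list to be called lower (-0.22, adjusted p = 0.0398). All 20 genes of G2 and M phase rose, from 1.61 for *Cenpa* to 4.97 for *Ccnb1*, with a median of 4.35. Of these, *Bub1*, *Ttk* and *Cdc25c* passed the filter only through the cultured groups, as did *Cdc6* of the S phase list. Between actB and Pb the lists split. Of the S phase genes 5 were higher and 13 lower in Pb, with a median of -0.23, from *Cdt1* at 0.70 to *Chaf1b* at -1.02. Of the G2 and M phase genes 5 were higher and 4 lower, with a median of 0.0054, from *Foxm1* at 0.68 to *Bub1* at -0.51.

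The genes of the E2F6 complex showed less of a trend with activation, with 6 higher and 4 lower of 12, from *Cbx3* (0.96) to *Ring1* (-1.19). In Pb, 11 of these 12 were lower than in actB, with a median of -0.41, and *Max* fell most, from 62.4 to 67.7 RPKM in actB to 18.8 to 23.3 RPKM in Pb (-1.61). *E2f6* itself was among the members that were lower there. Of 6 germline genes known to be silenced by E2F6, only 1 passed the filter, the meiotic cohesin gene *Stag3*, at 0.255 to 0.439 RPKM in nB and 1.53 to 1.83 RPKM in actB. It passed only through the cultured groups, so its log2 fold change of 1.71 says nothing of the list. Of 7 corepressors that bind the retinoblastoma protein, 4 rose and 3 fell with activation, from *Dnmt1* (1.51) to *Smarca2* (-1.38), and 1 rose and 3 fell between actB and Pb, from *Smarca2* (0.30) to *Rbbp7* (-0.54).

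**Figure D4:**
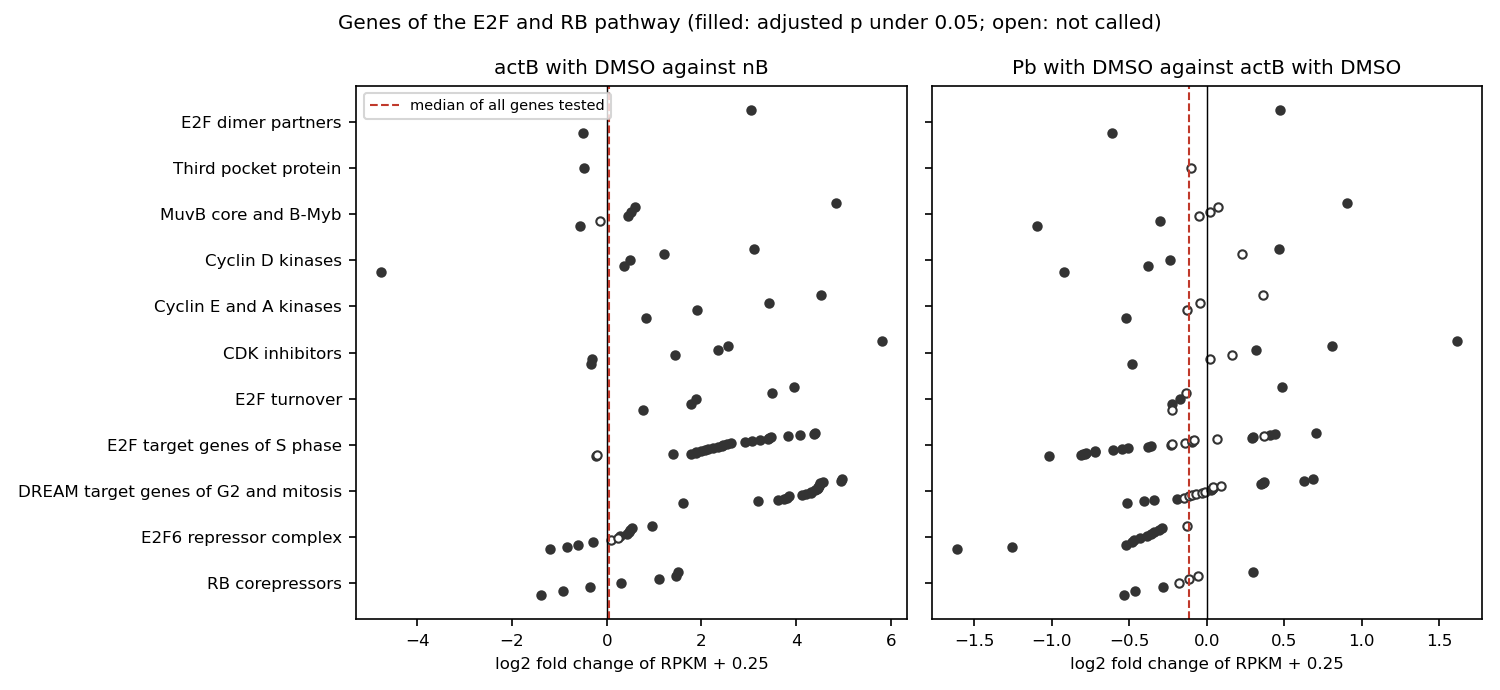
Log2 fold change on the RPKM + 0.25 scale (x axis) of each gene (points) in the lists of E2F pathway genes (y axis), for actB against nB and for Pb against actB, with dashed lines at the median of all genes, 0.053 and -0.116. The G2 and M phase list lies wholly to the right with activation, from 1.61 to 4.97, and the E2F6 complex list mostly to the left in Pb, with a median of -0.41.

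The comparison of GSK343 with DMSO asks whether inhibition of EZH2 altered these genes within a stage. It shares the DMSO libraries with the comparisons between stages. In actB, 1 of the 10 members was called higher, where 8.2% of all genes were, and none was called lower in limma, where 2.16% of all genes were. Without adjustment, 2829 genes had a p under 0.05. These counts leave out the pairing by replicate number. With that number as a block, 4 members were called higher, where 14.7% of all genes were. The median log2 fold change was 0.156 over the members and 0.028 over all genes. The transcript of *Ezh2*, whose protein the drug inhibits, was at 101.2 ± 6.26 RPKM with DMSO and 120.4 ± 12.4 RPKM with GSK343 (n = 3, adjusted p = 0.0705, limma).

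The member called was *E2f1*. Its level was 18.3, 17.2 and 17.1 RPKM with DMSO and 22.4, 19.7 and 19.5 RPKM with GSK343. The groups did not overlap, and the log2 fold change was 0.22 (SE 0.0602, adjusted p = 0.0354), with a 95% interval of 0.09 to 0.35 and a ratio of mean RPKM of 1.17. The call did not hold without each of 5 of the 6 libraries in turn, with an adjusted p of 0.0518 without DMSO replicate 1, 0.0708 without DMSO replicate 2, 0.115 without DMSO replicate 3, 0.119 without GSK343 replicate 1 and 0.0501 without GSK343 replicate 3. Nor did it hold with scaling by the median gene (adjusted p = 0.0622), with the compared groups alone (0.150) or in edgeR with either of its scalings (0.0573 and 0.0502). With the replicate number as a block, the adjusted p was 0.0186.

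*E2f7* had the largest fold change of the members with GSK343 in actB but did not pass the test. It stood at 2.89, 2.18 and 3.07 RPKM with DMSO and 4.72, 3.16 and 3.97 RPKM with GSK343, groups without overlap at a ratio of mean RPKM of 1.46. The log2 fold change was 0.50 (SE 0.152, adjusted p = 0.0577), with a 95% interval of 0.17 to 0.83. Replicate 2 was the lowest library of both groups, and the differences between libraries of the same number were 0.66, 0.49 and 0.34 on the log2 scale. Without GSK343 replicate 2 *E2f7* was called, at 0.64 (adjusted p = 0.0215). It was also called in edgeR with either scaling (adjusted p = 0.0473 and 0.0438), where *E2f1* was not, and with all 15 columns (0.0414). With the replicate block the adjusted p of *E2f7* was 0.00561, and 4 members were called higher in place of 1, while 14.7% of all genes were called higher in that fit in place of 8.2%.

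*E2f8* followed the same course, with 37.6, 27.2 and 34.6 RPKM with GSK343 beside 33.6, 24.0 and 30.6 RPKM with DMSO. The groups overlapped, while the differences by number were 0.16, 0.18 and 0.18. Its log2 fold change of 0.17 (SE 0.143) had an adjusted p of 0.517 without and 0.0446 with the replicate block. *E2f3*, at 14.6, 11.7 and 13.9 RPKM with GSK343, had differences by number of 0.24, 0.16 and 0.11, and an adjusted p of 0.350 without and 0.0278 with the block. *E2f2*, at 54.4, 45.4 and 52.5 RPKM, had a log2 fold change of 0.19 (adjusted p = 0.0943), and without GSK343 replicate 2 it was called, at 0.27 (adjusted p = 0.0155). The 95% intervals of *E2f4*, *E2f5*, *E2f6* and *Rbl1* were -0.23 to 0.20, -0.27 to 0.19, -0.13 to 0.26 and -0.16 to 0.16.

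**Figure D5:**
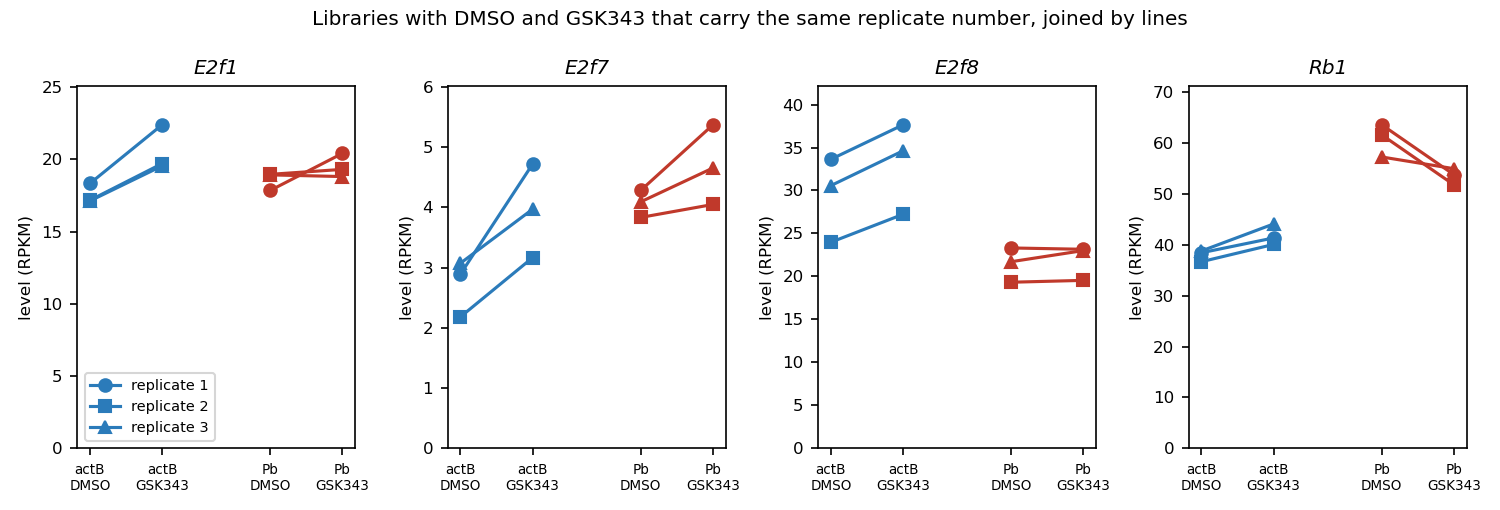
Level of *E2f1*, *E2f7*, *E2f8* and *Rb1* in RPKM (y axis) with DMSO and with GSK343 in actB and in Pb (x axis), with lines joining the libraries of the same replicate number. *E2f8* goes up along each actB line by 0.16 to 0.18 on the log2 scale, and *Rb1* goes up along the actB lines and down along the Pb lines.

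Markers of other stages and cells also moved in actB with GSK343. Of 7 plasmablast markers, *Sdc1* (0.41, adjusted p = 0.0422) and *Jchain* (0.37, adjusted p = 0.0277) were called higher, and the list summed to 996 to 1032 RPKM with DMSO and 1028 to 1201 RPKM with GSK343. *Sdc1* was low in these cells, at 0.532 to 0.769 RPKM with DMSO and 0.774 to 1.16 RPKM with GSK343. Of 8 myeloid markers tested of 10, *Itgam* (1.14, adjusted p = 0.00376) and *Adgre1* (0.79, adjusted p = 0.0156) were called higher, and the list summed to 4.21 to 5.48 RPKM with DMSO and 8.42 to 14.2 RPKM with GSK343. Most of that sum was *Itgam*, at 3.505 to 4.66 and 6.60 to 12.8 RPKM, and *Csf1r*, *Cd14* and *Csf3r* were at most 0.108 RPKM in any of these libraries, with log2 fold changes of 0.08, -0.07 and 0.10. *Adgre1* was also low, at 0.127 to 0.168 RPKM with DMSO and 0.405 to 0.486 RPKM with GSK343, and passed the filter only through nB. *S100a8* and *S100a9*, which mark neutrophils, had no reads in any actB library. The part of these markers in the values of *E2f1* and *E2f7* was not tested.

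In Pb with GSK343, no member was called higher in limma, where 7.9% of all genes were, and *Rb1* was called lower, where 5% of all genes were. Without adjustment, 3045 genes had a p under 0.05. *Rb1* had 63.6, 61.6 and 57.3 RPKM with DMSO and 53.8, 51.8 and 55.0 RPKM with GSK343. The groups did not overlap, the GSK343 libraries lay above all nB and actB libraries, and the log2 fold change was -0.18 (SE 0.0534, adjusted p = 0.0425), with a 95% interval of -0.30 to -0.07. It was not called with no filter on low values (adjusted p = 0.0523), with quantile scaling (0.0505), with a robust prior (0.0508) or with the compared groups alone (0.0644). The call held without DMSO replicate 3 (adjusted p = 0.0329), but not without any of the other 5 libraries, with an adjusted p of 0.157 without DMSO replicate 1, 0.110 without DMSO replicate 2, 0.102 without GSK343 replicate 1, 0.122 without GSK343 replicate 2 and 0.0776 without GSK343 replicate 3. The drug and the labelled cytokine cannot be told apart in this group. Of the genes whose exons overlap *Rb1*, *Lpar6* was higher with GSK343 (0.65, adjusted p = 0.0395) and *Rcbtb2* had a log2 fold change of 0.24 (adjusted p = 0.236). The part of shared reads in the level of *Rb1* was not tested here either.

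The other members had log2 fold changes of at most 0.19 in size in Pb. *E2f1* had 20.4, 19.3 and 18.8 RPKM with GSK343 and overlapped the DMSO libraries (0.07, adjusted p = 0.520). *E2f7* had 5.37, 4.05 and 4.65 RPKM beside 4.28, 3.83 and 4.09 RPKM with DMSO, overlapping groups with a log2 fold change of 0.19, a 95% interval of -0.15 to 0.52 and an adjusted p of 0.491. *E2f8*, at 23.2, 19.5 and 23.0 RPKM, had an interval of -0.28 to 0.34. *E2f5* stayed at the low level of Pb, with 4.11, 3.57 and 4.18 RPKM. Of the plasmablast markers, *Sdc1* was higher (0.89, adjusted p = 0.000575) and *Irf4* lower (-0.25, adjusted p = 0.0225) in these libraries, and their part in the level of *Rb1* was not tested.

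The differences between GSK343 and DMSO were compared between the cell stages, as that in Pb minus that in actB. Drug and labelled cytokine cannot be told apart in Pb, so this comparison cannot tell whether the drug itself acted differently by stage. None of the 10 members passed in limma, where 0.248% of all genes did, while 1017 genes had an unadjusted p under 0.05. The largest difference was that of *Rb1*, at -0.32 on the log2 scale (SE 0.0755, 95% interval -0.49 to -0.16), with an unadjusted p of 0.00109 and an adjusted p of 0.129. By replicate number, *Rb1* differed with GSK343 by 0.10, 0.13 and 0.18 in actB and by -0.24, -0.25 and -0.059 in Pb. *E2f2* also had an unadjusted p under 0.05, at 0.0488, with a difference of -0.21 (adjusted p = 0.549).

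With GSK343 in actB, 7 of the 94 pathway genes tested were called higher and 2 lower, or 7.45% and 2.13%, close to the 8.2% and 2.16% of all genes. In Pb 1 was called higher and 5 lower, or 1.06% and 5.32%, beside 7.9% and 5% of all genes. In actB, none of the 25 S phase genes was called in limma, with a median of 0.090, and 1 of the 20 G2 and M phase genes was, with a median of 0.097. The CDK inhibitor *Cdkn2d* was the first of the pathway genes by adjusted p, marker lists aside, at 11.0 to 12.1 RPKM with DMSO and 16.6 to 17.7 RPKM with GSK343 (0.55, adjusted p = 0.000736). It was followed by *Ccnd2* (0.22, adjusted p = 0.0118), by *Rybp*, a gene of the E2F6 complex list (0.24, adjusted p = 0.0150), and by the CDK inhibitor *Cdkn2c* (0.39, adjusted p = 0.0212). The CDK inhibitors split, since *Cdkn1b* (-0.37, adjusted p = 0.0327) and *Cdkn2b* (-0.43, adjusted p = 0.0469) were lower. In Pb, the CDK inhibitor *Cdkn1b* came first of the pathway genes, at 48.7 to 56.9 RPKM with DMSO and 33.2 to 37.5 RPKM with GSK343 (-0.59, adjusted p = 0.00274). The DNA polymerase gene *Pole* was lower (-0.23, adjusted p = 0.00605), the only call among the 25 S phase genes. *Cdkn1a*, which encodes the CDK inhibitor p21, was higher (0.77, adjusted p = 0.0182), and *Pcgf6* of the E2F6 complex was lower (-0.32, adjusted p = 0.0281).

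The genes whose pattern over the 14 libraries lay nearest to each member were taken by Pearson's r of log2(RPKM + 0.25). These values share libraries and are carried by the steps between stages, so they serve as description. For *E2f1* the nearest were *Tcf19* (0.997), *Cdkn3* (0.996) and *Ncapd2* (0.995), and for *E2f2* they were *Pnldc1* (0.989), *Usp37* (0.974) and *Traf7* (0.971). *E2f3* lay nearest to *Ap1s1* (0.992), *Rangap1* (0.990) and *Skp2* (0.989). For *E2f7* they were *Ccne1* (0.993), *Shq1* (0.993) and *Nxt1* (0.992), and for *E2f8* *Kif20a* (0.998), *Eme1* (0.997) and *Lig1* (0.997). *E2f4* had *Rrp12*, *Fbl* and *Dnajc11* (0.975 each), *E2f5* had *Actg1* (0.992), *Hdac1* (0.991) and *Lrrcc1* (0.989), and *E2f6* had *Pidd1* (0.997), *Psma5* (0.996) and *Ncbp2* (0.995). *Rbl1* lay nearest to *Suv39h2* (0.989), *Chek2* (0.985) and *Topbp1* (0.985). *Rb1* had the loosest match of the members, with *Sspn* (0.967), *Cdc42se2* (0.963) and *Clint1* (0.962). Among the members themselves, *E2f6* and *E2f8* lay closest (0.986), and *E2f5* and *Rb1* were most opposed (-0.924).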

How the data were processed

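RNA-seq was made from 500 ng of total RNA per library with a stranded poly(A) kit and 50 bp paired-end reads. The authors aligned reads to mm9 with TopHat2, counted them per gene with GenomicRanges 1.22.4 and deposited reads per 1000000 reads (RPM) with gene lengths. Whether strand was used in counting is not given in the sources used here. Every deposited RPM value was a whole number of reads within 0.1 read, and 3 reads were worth 0.114 to 0.154 RPM. The 92 genes with no symbol held at most 0.0905% of reads. Labels call the libraries of a group separate samples, and where nothing ties them to separate mice p-values measure the spread between libraries.

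RPM was divided by the length in kilobases to give RPKM. Genes with at least 1 RPKM in at least 3 of the 15 columns were fitted with limma 3.58.1 (R 4.3.3) on log2(RPKM + 0.25), with a trended prior and all 5 groups in 1 fit. The adjusted p is Benjamini-Hochberg's over 11299 genes. Libraries 1 and 2 of nB had identical reads for 79.5% of genes, against at most 1.84% in any other pair within a group, and were averaged. The replicate numbers pair the cultured libraries: deviations from group means correlated at 0.158 to 0.713 between libraries of the same number in 18 pairs, and at -0.603 to 0.370 between those of different numbers in 36 pairs. The block was fitted on the 12 cultured libraries. Alternatives were other scalings, pseudocounts, filters and priors, edgeR 4.0.16 on the recovered reads, the compared groups alone, the replicate block, and each library left out in turn.

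The members, lists and tests were chosen with earlier results of these data known. Genes named from a list were those with the largest called rise and fall between stages, or for GSK343 the first 4 of all pathway lists by adjusted p, to which the other CDK inhibitors called in actB were added after their values were seen, and for each member the 3 nearest genes by Pearson's r. Marker genes were named to check the labels. Positions come from GENCODE vM1 on mm9 and promoter windows from RefSeq on GRCm38.p6. Other steps used Python 3.11.15 with pandas 2.3.3, numpy 2.4.6, scipy 1.17.1 and matplotlib 3.10.9. The limma and edgeR fits were tested on simulated data.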

Additional observations from a re-analysis of the deposited data

Results flagged for a closer look

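*Rb1* had log2 fold changes of opposite sign with GSK343, 0.14 in actB (adjusted p = 0.125, limma) and -0.18 in Pb (adjusted p = 0.0425, limma). The call in Pb did not hold in 5 of 6 fits with 1 library left out. Drug and labelled cytokine cannot be told apart in Pb. Every comparison of libraries of the same number was upward in actB and downward in Pb, and the difference of the effects was -0.32 on the log2 scale (SE 0.0755). The test of that difference gave an adjusted p of 0.129 in limma, and 0.0634 with the replicate block, so that it did not pass over all genes. Over the other settings the adjusted p ranged from 0.0634 to 0.189.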

How the results depend on the processing

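The comparisons of actB and of Pb with nB kept every member's direction and call under the settings that kept all libraries. In actB with GSK343, 1 member was called, and 0 with median scaling or with the compared groups alone, 2 with quantile scaling or all 15 columns, 1 in edgeR (*E2f7* in place of *E2f1*), 4 with the replicate block and 0 to 3 with 1 library left out. In Pb with GSK343, 1 was called, and 0 with no filter, quantile scaling, a robust prior or the compared groups alone, and 0 to 1 with 1 library left out. The cause was not tested. The adjusted p ranged over the other settings from 0.0186 to 0.150 for *E2f1* and 0.00561 to 0.216 for *E2f7* in actB, and from 0.0225 to 0.0644 for *Rb1* in Pb. The block changed no member's call in Pb.

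Signs of small log2 fold changes turned with scaling. In actB with GSK343, *E2f4* became 0.00935 with quantiles, and *Rbl1* became -0.0307 with the median, -0.00846 with quantiles, -0.0296 with edgeR's TMM and -0.0300 with its relative log expression. In Pb against actB, in that order of settings, *E2f2* became 0.0974, 0.0430, 0.0472 and 0.0993, and *E2f3* 0.0702, 0.0761, 0.0157 and 0.0678. There *Rbl1* became 0.0104 with the median and 0.0108 with relative log expression.

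With 1 library left out, signs turned within these ranges. In actB with GSK343 they were -0.115 to 0.0644 for *E2f4*, -0.0897 to 0.0201 for *E2f5* and -0.0414 to 0.0450 for *Rbl1*. In Pb with GSK343 they were -0.0493 to 0.0316 for *E2f2*, -0.0730 to 0.0529 for *E2f3*, -0.00568 to 0.126 for *E2f4*, -0.132 to 0.0650 for *E2f5* and -0.0426 to 0.109 for *E2f8*. For the difference of effects they were -0.0906 to 0.107 for *E2f5* and -0.0197 to 0.138 for *E2f6*. In Pb against actB they were -0.0366 to 0.0170 for *E2f2* and -0.130 to 0.0203 for *E2f3*, and in Pb against nB -0.184 to 0.0211 for *E2f4*.

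Over all genes, 1170 were called in actB with GSK343, and 386 with the compared groups alone, 2368 with the replicate block and 608 to 1363 with 1 library left out. In Pb 1458 were called, 2740 with the block and 690 to 1304 with 1 library left out. For the difference of effects 28 were called, and 18 with quantiles, 4 with the groups alone, 83 with the block, 48 with 15 columns and 0 to 58 with 1 library left out. The share of calls that were higher was 79.1% in actB with GSK343 and 39.2% in Pb against actB, and 65.1% and 49.4% with median scaling, or 61.6% and 47.1% with quantiles.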
